A study of Danio rerio with 4 samples.

Results

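Transcripts that PacBio sequencing placed at the same genomic locus were examined at the 3205 loci for which the deposited expression table lists 2 or more of them. Each PacBio transcript carries an identifier of the form PB.locus.isoform, and rows with the same locus number were grouped. The 3205 loci hold 8652 isoforms, which are 52.0% of the 16639 PacBio transcripts and 28.6% of the 11192 PacBio loci of the table. Another 7987 loci list a single transcript, and the whole table lists 32575 transcripts, RefSeq transcripts included. The choice used only the number of rows, not their values.

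The study profiled pools of zebrafish (Danio rerio) embryos of the wild-type strains AB, TAB14 or TAB5 around zygotic genome activation (ZGA), the time when the embryo begins to transcribe its own genome. The long-read samples were pools of 15 embryos, 1 untreated and 1 injected with 0.2 nmol of α-amanitin, and both are labelled 6 hours post fertilization (hpf). The source name of the injected sample gives an earlier, pre-ZGA cell stage instead, and this conflict was not resolved. Short-read libraries came from about 20 untreated embryos each at 2.5 and 5.25 hpf, and their own files were not analysed here. The expression table has 2 columns, named for control and α-amanitin, and the names were used to match them to the untreated and injected groups. Which reads were quantified for them is not given in the sources used here, so a ratio between the columns may contrast stages rather than the treatment. There was 1 library per group. No difference between the columns has a replicate check, no p-value is given, and intervals cover counting error over loci, which are not replicates.

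One gene can give several mRNA isoforms through different start sites, splice choices or polyadenylation sites. The early embryo runs on mRNA that the mother placed in the egg, and this store is cleared as the embryo's own genome is switched on, so an isoform made in the ovary and an isoform made in the embryo can be present from the same gene. α-Amanitin inhibits RNA polymerase II and so leaves the embryo with its maternal mRNA. As a check of the columns, ved, a ventral repressor first made by the embryo, was at 674 TPM (transcript abundance scaled to the same total in each column) in the control and 0.742 in the α-amanitin column. The T-box gene tbx16, also switched on in the embryo, was at 433 and 0.464 TPM. The maternal genes btg4 and zar1, which act in the egg, were at 18.3 and 9.65 TPM in the control against 911 and 79.4 TPM in the α-amanitin column. Neither ved nor tbx16 had a transcript model in either long-read library. The check was made for the column names, and which reads were quantified was not tested. In bulk samples like these, fewer cells of a type and less RNA per cell cannot be told apart.

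Most loci listed few isoforms. There were 2 isoforms at 2036 loci, 3 at 688, 4 at 254 and 5 or more at 227, and 13 loci had 10 or more. The rule's limit lies between 1 and 2 listed transcripts: the median level of loci with 1 transcript was 8.12 TPM in the control and 11.2 TPM in the α-amanitin column, and the summed level of loci with 2 or more had medians of 19.2 and 40.3 TPM. The isoform numbers had gaps at 297 loci, and 23 loci did not list isoform 1, so the table does not hold every numbered isoform. Together the isoforms of these loci took 20.0% of all TPM in the control and 27.3% in the α-amanitin column. Without the single largest locus, PB.8989, the shares were 19.1% and 24.6%. The table gives neither gene names nor positions for these numbers, so the loci are named here by identifier and no sequence is shown.

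An isoform listed beside others was often at or near 0. Of the 8652 isoforms, 744 (8.60%) were listed at 0 in both columns, against 222 of the 7987 transcripts listed alone (2.78%). In all, 69.5% of the isoforms were at 1 TPM or more in the control and 71.0% under α-amanitin, while 83.8% and 84.3% of the transcripts listed alone were. Only 2028 loci in the control and 2105 in the α-amanitin column had 2 or more isoforms of at least 1 TPM. A further 1014 and 1002 loci had exactly 1. Isoforms of a locus can share sequence, and a quantifier then has to divide reads that match several of them. The values of single isoforms were taken as such estimates. No error is given for them, and a listed 0 can be a failed estimate. Whether this accounts for the higher share of zeros was not tested.

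**Figure D1:**
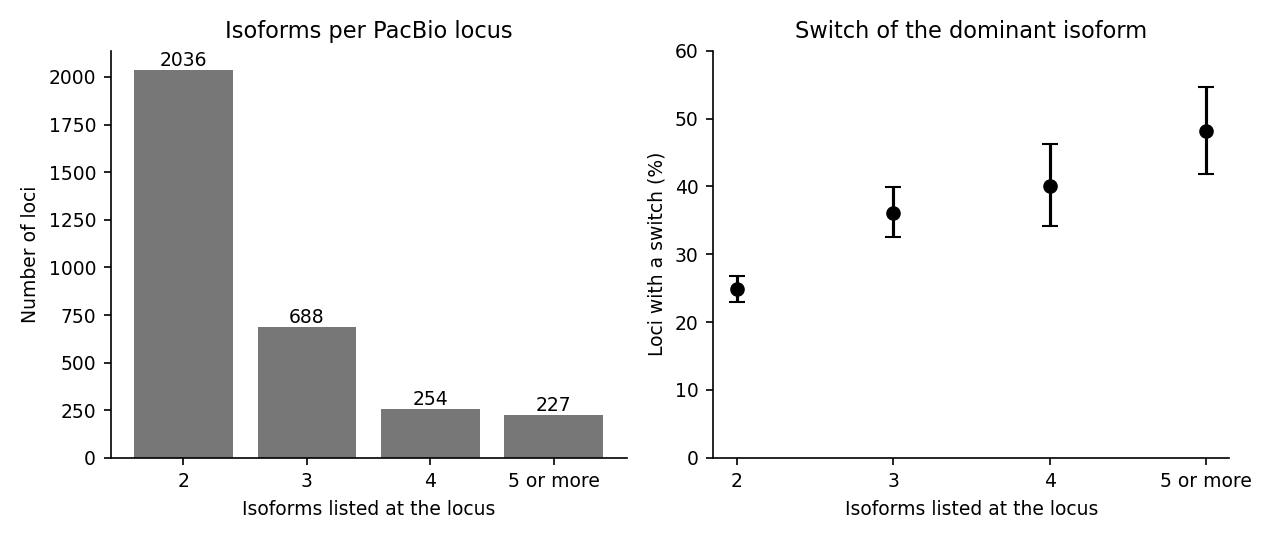
Left, number of PacBio loci by the number of isoforms listed, from 2036 loci with 2 isoforms to 227 loci with 5 or more. Right, percent of loci of at least 1 TPM in both columns whose most abundant isoform differed between the control and the α-amanitin column, with Wilson 95% intervals, rising from 24.9% at loci with 2 isoforms to 48.2% at loci with 5 or more. Switches between isoforms that each held at least 50% of the locus were at 24.9% and 10.2% of these loci.

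The first question was how strongly 1 isoform dominated its locus. The share of an isoform was its TPM as a percent of the summed TPM of its locus, and the dominant isoform was the one of highest TPM. Shares were compared at the 3023 loci (94.3%) with a total of at least 1 TPM in both columns, and the other 182 loci were left out of them. The dominant isoform had a median share of 80.7% in the control (95% interval 79.3 to 82.0) and 84.1% in the α-amanitin column (82.8 to 85.6). It held at least 90% of the locus at 1078 loci (35.7%) in the control and 1273 loci (42.1%) in the α-amanitin column, and under 50% at 226 and 197 loci. The effective number of isoforms, the inverse of the summed squared shares, had a median of 1.46 in the control (1.42 to 1.50) and 1.37 in the α-amanitin column (1.33 to 1.41). Thus, among its listed PacBio isoforms, the typical locus was carried mainly by 1 in each column. RefSeq transcripts of the same gene can have rows of their own. They are not part of the shares, leaders or totals of the loci. At 1637 loci the dominant share was higher in the α-amanitin column and at 1195 it was higher in the control. RefSeq genes, counted from their RefSeq transcripts alone, were no less dominated. The 318 RefSeq genes with 2 or more transcripts in the table and at least 1 TPM in both columns had median dominant shares of 85.5% in the control (82.0 to 89.6) and 95.5% in the α-amanitin column (91.3 to 97.2). Their leader held at least 90% in 43.1% and 58.2% of genes. In 194 of these genes the dominant share was higher in the α-amanitin column and in 105 it was higher in the control. The lean towards the α-amanitin column is thus not particular to the loci. With 2 isoforms per unit, a leader of at least 90% was found at 45.6% of loci (43.4 to 47.9) and 49.6% of RefSeq genes (43.7 to 55.6) in the control, and at 52.8% (50.5 to 55.0) and 61.3% (55.3 to 66.9) in the α-amanitin column.

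The dominant isoform differed between the columns at 917 of the 3023 loci (30.3%, interval 28.7 to 32.0). Over these loci and the RefSeq genes with 2 or more transcripts in the table pooled, 3341 units in all, the background was 29.8%, and the loci make up most of that background. Among the 318 RefSeq genes alone, 77 switched (24.2%, 19.8 to 29.2). With 2 isoforms per unit the shares were 24.9% of 1886 loci (23.0 to 26.9) and 22.6% of 266 RefSeq genes (17.9 to 27.9). These intervals overlap, so no difference between the loci and the RefSeq genes is claimed. The RefSeq genes count RefSeq transcripts only, and PacBio loci of the same genes can be among the loci. The share of loci with a switch was 36.1% at 3 isoforms, 40.1% at 4 and 48.2% at 5 or more. This rise was not seen for switches between isoforms that each held at least 50% of the locus. They were found at 24.9% of loci with 2 isoforms, 27.2% with 3, 20.2% with 4 and 10.2% with 5 or more. A leader of 2 isoforms always holds at least 50%, so both kinds of switch are the same there by construction. The contrast between these trends is thus partly set by the definitions. At a threshold of 80% the shares were 5.46%, 2.28%, 0.397% and 0.442%, the last 2 from 1 locus each. Loci with more isoforms were also less dominated: the median dominant share in the control fell from 88.0% at loci with 2 isoforms to 56.6% at loci with 5 or more.

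Many of these changes of leader were incomplete. At 272 of the 917 loci the leader was ahead of the second isoform by under 10 percentage points in at least 1 column. With a lead of 10 points or more in both columns, 645 loci (21.3%) remained. The isoform that led in the α-amanitin column kept a median share of 19.8% of its locus in the control (17.9 to 22.1), and the isoform that led in the control had a median of 21.2% in the α-amanitin column (19.1 to 23.7). The α-amanitin leader was listed at 0 in the control at 120 loci (13.1%), and the control leader was listed at 0 in the α-amanitin column at 104 (11.3%). Of all 8652 isoforms, 15.3% were listed at 0 in the control and 18.4% in the α-amanitin column. A listed 0 was thus not more frequent among these leaders. A switch between isoforms that each held at least 50% of the locus was found at 722 loci (23.9%, 22.4 to 25.4; background 23.7%). Requiring 80% in both columns left 120 loci (3.97%, 3.33 to 4.73; background 4.22%), and 90% left 50 (1.65%, 1.26 to 2.17; background 1.89%). Among the RefSeq genes alone, 21 (6.60%, 4.36 to 9.88) switched at 80% and 13 (4.09%, 2.40 to 6.87) at 90%. With 2 isoforms per unit, the shares at 80% were 5.46% of loci (4.52 to 6.58) and 7.14% of RefSeq genes (4.62 to 10.9). At 90% they were 2.28% of loci (1.70 to 3.06) and 4.89% of RefSeq genes (2.88 to 8.18). These intervals for units with 2 isoforms overlap at both thresholds. Over all loci and all RefSeq genes the intervals overlap at 80% but not at 90%, where the loci had the lower share. Those full sets were not matched for the number of isoforms, so no difference in near-complete switches is claimed. Of the 120, 41 had at least 10 TPM in both columns, and 34 of those 41 were loci with 2 isoforms.

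Among the 2106 loci that kept their leader, the dominant share changed by under 10 points at 1126 (53.5%). It was lower by 10 points or more in the control at 604 loci and higher by as much at 376. The median difference, control minus α-amanitin, was −1.01 points (−1.74 to −0.32).

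**Figure D2:**
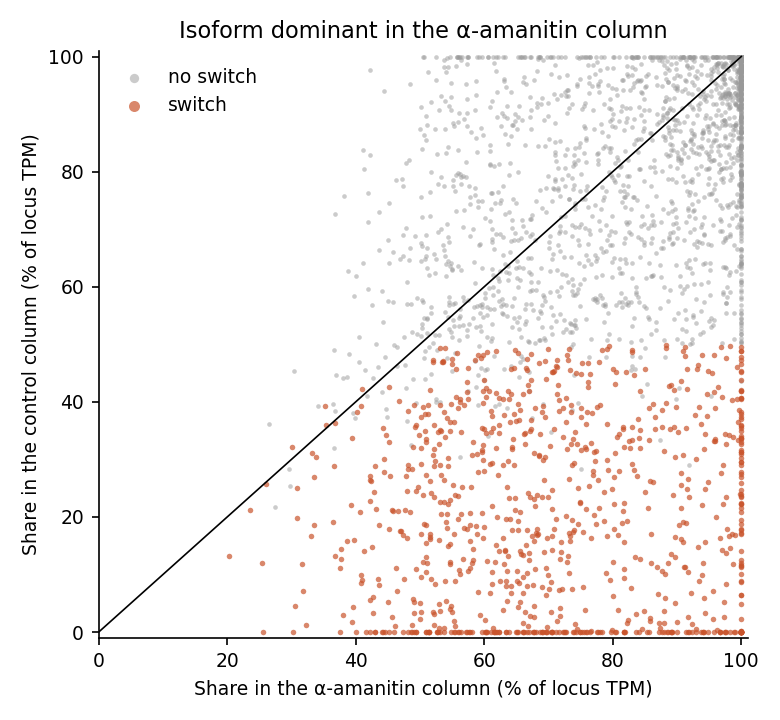
Each point is 1 of 3023 loci and shows the isoform that was dominant in the α-amanitin column, with its share of the locus in that column (x axis, %) and in the control column (y axis, %). The line marks equal shares, and the 917 loci with a switch (orange) lie almost entirely below it, with 120 of them (13.1%) at 0 on the y axis. Of all 8652 isoforms, 15.3% were listed at 0 in the control.

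The total change of a locus was measured as the share moved, the absolute differences in share summed over its isoforms and scaled so that 0% means the same proportions in both columns and 100% means no overlap. Its median was 18.8% (17.6 to 20.0). It was under 10% at 1056 loci (34.9%), at least 50% at 529 (17.5%) and at least 80% at 134 (4.43%). Among the 318 RefSeq genes these shares were 43.7%, 16.0% and 6.60%. The RefSeq genes had a median of 13.4% (10.2 to 16.6), but with 2 isoforms per unit the medians were 12.8% for loci (11.8 to 14.2) and 11.1% for RefSeq genes (8.62 to 15.8), intervals that overlap. Between loci the share moved was larger where more isoforms were listed, with medians of 24.0% at 3 isoforms, 28.7% at 4 and 34.7% at 5 or more. It varied less with the level: loci whose lower column was under 10 TPM had a median of 22.4%, those from 10 to under 100 TPM 17.1%, and the 217 loci of at least 100 TPM 19.5%. The share of loci with a switch in these bins was 34.6%, 27.7% and 30.4%, while the share with a switch between majority isoforms was 31.1%, 20.7% and 14.3%. The most abundant loci also listed less dominant leaders, with a median share of 72.0% in the control.

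The following 10 loci had the largest share moved among switches with at least 10 TPM in both columns. At PB.3737, isoform PB.3737.1 was at 64.3 TPM in the α-amanitin and 0.531 TPM in the control column, while PB.3737.2 was listed at 0 and at 23.1 TPM. Each column was thus nearly all 1 isoform, and 97.7% of the locus moved between them. PB.4809 did the same in the other order of numbers: PB.4809.1 was at 56.7 TPM in the control and 0.0501 TPM in the α-amanitin column, and PB.4809.2 at 2.96 and 117 TPM. At PB.3676, PB.3676.1 was at 0.746 TPM in the control and 66.4 TPM in the α-amanitin column, and PB.3676.2 at 26.9 and 1.84 TPM. PB.10018 had PB.10018.1 at 15.7 TPM in the control and 1.89 TPM in the α-amanitin column, and PB.10018.2 listed at 0 and at 31.1 TPM. These 4 loci list 2 isoforms each, and in all 4 the summed TPM was lower in the control.

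The other 6 of the 10 list 3 or 4 isoforms. At PB.1174 the total was close in the columns, at 56.5 TPM in the control and 64.0 TPM in the α-amanitin column. PB.1174.1 held 96.7% of it in the α-amanitin column and was listed at 0 in the control, where PB.1174.2 (31.4 TPM) and PB.1174.3 (25.1 TPM) shared the locus. At PB.462, PB.462.3 held 82.1% of the control total (12.4 TPM) and was listed at 0 in the α-amanitin column, where PB.462.4 led with 43.1 TPM. PB.462.2 went with it, at 0.273 TPM in the control and 17.2 TPM in the α-amanitin column. At PB.2078, PB.2078.1 was at 12.0 TPM in the control and 1.87 TPM in the α-amanitin column. Its other isoforms, PB.2078.2 and PB.2078.3, were at 64.9 and 24.3 TPM in the α-amanitin column and at 0.229 TPM and a listed 0 in the control.

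At PB.4624, PB.4624.2 held 95.7% of the α-amanitin column with 185 TPM, and in the control it was at 3.25e-08 TPM. PB.4624.1 and PB.4624.4 took its place there with 17.4 and 25.8 TPM. PB.3428 and PB.6224 were the 2 of the 10 with a higher total in the control. PB.3428.3 was at 59.1 TPM in the control and 0.482 TPM in the α-amanitin column, where PB.3428.1 led with 27.5 TPM. PB.6224.4 was at 105 TPM in the control and 0.230 TPM in the α-amanitin column, where PB.6224.1 (17.7 TPM) and PB.6224.3 (9.18 TPM) made up the locus.

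**Figure D3:**
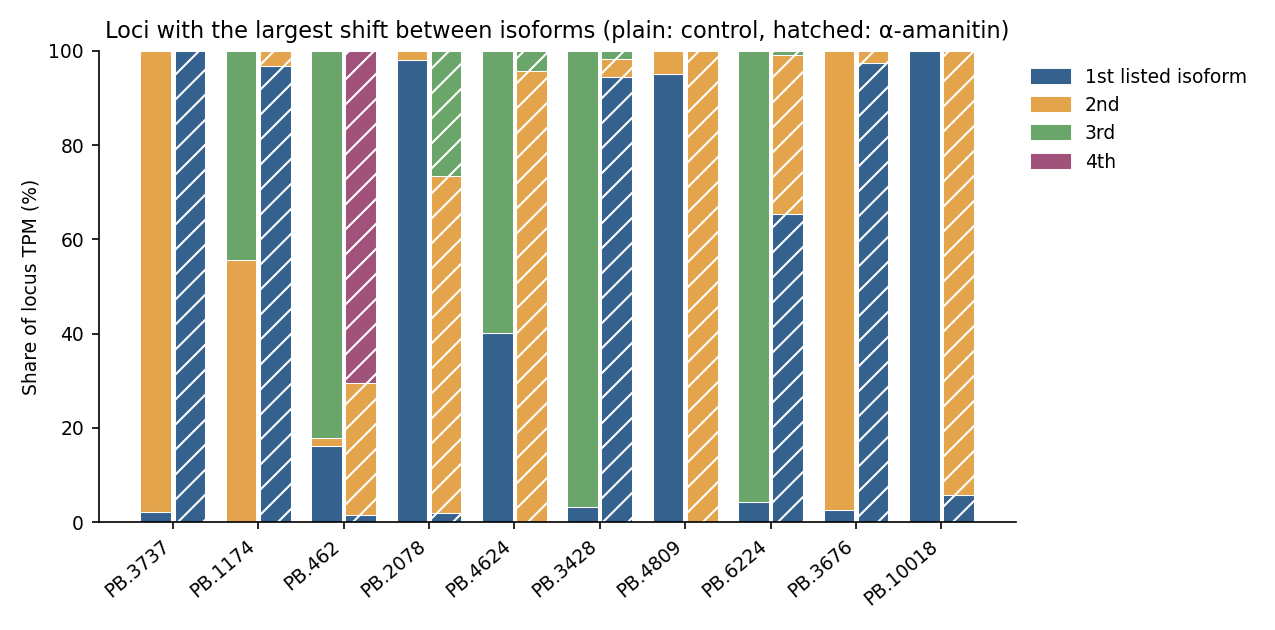
Shares of locus TPM (%) by isoform for the 10 switch loci with the largest share moved, with a plain bar for the control and a hatched bar for the α-amanitin column; colours follow the order of the isoform numbers listed. At PB.3737 the second isoform held 97.7% in the control and the first held 100% in the α-amanitin column.

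The isoform numbers themselves carried some order. Where isoform 1 was listed, it was dominant at 59.2% of 3004 loci in the control (57.4 to 60.9) and at 53.6% in the α-amanitin column (51.8 to 55.3). At loci with 2 isoforms these shares were 68.0% and 64.2%. Of the 469 switches at loci with 2 isoforms, 271 went from the higher-numbered leader in the α-amanitin column to the lower-numbered one in the control, and 198 went the other way. In the per-library tables of transcript models, which use the same form of identifier, model 1 was the longest of its locus at 69.0% of the α-amanitin loci with 2 or more models and at 68.5% of the untreated ones. Whether the numbers of the expression table follow length in the same way was not tested.

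Locus totals were then compared between the columns, as log2 of (control TPM + 1) over (α-amanitin TPM + 1). The median over the 3205 loci was −0.79 (−0.86 to −0.73). A total at least 2-fold higher in the control was found at 431 loci (13.4%), against a background of 20.2% over all PacBio loci and 21.8% over all transcripts of the table. A total at least 2-fold lower was found at 1440 loci (44.9%), against 36.4% and 29.3%. Higher loci were therefore 23.0% of those past 2-fold. With every ratio centred on the median transcript (−0.47, over those that reached 1 TPM in each column), there were 657 higher and 1094 lower loci, so that 37.5% were higher, and the median was −0.33. Loci with a single transcript had a median of −0.19 (−0.24 to −0.14), with 22.9% higher and 33.0% lower. RefSeq transcripts had a median of 0.00, with quartiles of −0.98 and 0.84; 739 of the 15936 (4.64%) were listed at 0 in both columns and so have a ratio of exactly 0, and the median falls among these ties.

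The totals are sums over isoforms and so lie at a higher level than single transcripts. Among loci with a mean of at least 10 TPM, the medians were −0.85 (−0.94 to −0.79) for 2680 loci with 2 or more isoforms, −0.37 (−0.45 to −0.29) for 4409 loci with 1 transcript and −0.56 (−0.62 to −0.48) for 6010 RefSeq transcripts. The number of isoforms made little difference to the total: the medians were −0.79 at 2 isoforms, −0.86 at 3, −0.74 at 4 and −0.73 at 5 or more. Because the sets were compared without replicates, these values describe the columns and do not show that a further pair of libraries would give the same gap.

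**Figure D4:**
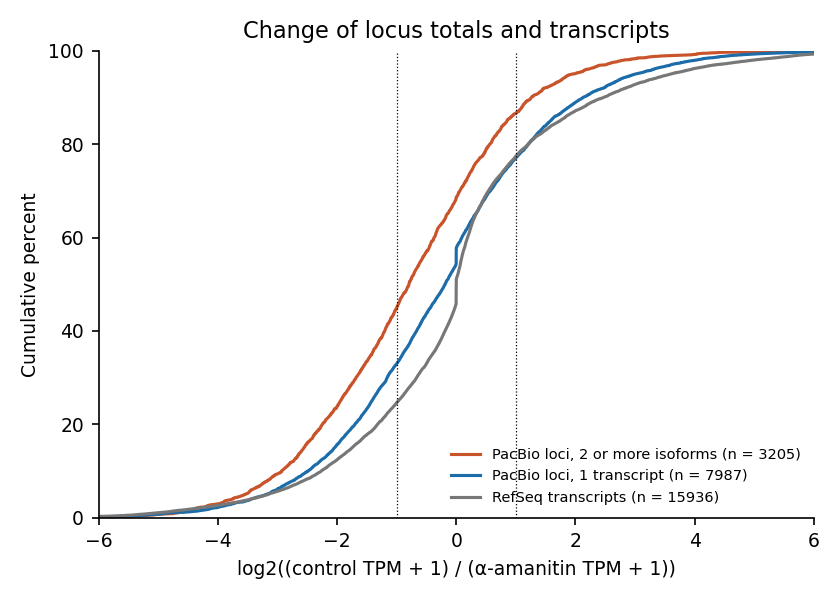
Cumulative percent of loci or transcripts (y axis) by log2((control TPM + 1)/(α-amanitin TPM + 1)) (x axis) for PacBio loci with 2 or more isoforms, PacBio loci with 1 transcript and RefSeq transcripts; dotted lines mark 2-fold. The curve of loci with 2 or more isoforms lies to the left, with 44.9% of them at least 2-fold lower in the control.

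Where either column reached 10 TPM, the total that rose most towards the control was that of PB.8405, from 1.88 to 938 TPM (log2 ratio 8.35). Nearly all of it came from PB.8405.2, at 936 TPM in the control and listed at 0 in the α-amanitin column, while PB.8405.1 stayed at 1.11 and 1.88 TPM. PB.5967 rose from 5.27 to 313 TPM (5.65) with PB.5967.3 at 310 TPM in the control, and PB.5967.1 was at 3.09 and 2.92 TPM. PB.1781 rose from 4.53 to 265 TPM (5.59), of which PB.1781.4, listed at 0 in the α-amanitin column, gave 242 TPM. PB.1781.1 was also higher in the control, at 21.0 against 2.91 TPM, while PB.1781.2 was at 1.85 and 1.62 TPM. At these 3 loci 1 isoform gave from 91.4% to 99.9% of the control total, beside another of under 4 TPM in both columns. PB.10551 rose from 1.63 to 123 TPM (5.56), with PB.10551.1 at 112 TPM in the control and listed at 0 in the α-amanitin column. At PB.9226 both isoforms were high in the control, at 46.2 and 21.5 TPM, and at 1.70e-05 TPM and a listed 0 in the α-amanitin column.

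The 5 largest falls reached under 1 TPM in the control. PB.7002 was at 153 TPM in the α-amanitin and 0.586 TPM in the control column (log2 ratio −6.60), with its isoforms PB.7002.1 and PB.7002.2 at 65.4 and 87.4 TPM in the α-amanitin column. PB.6166 was at 154 and 0.862 TPM (−6.38), and its leader PB.6166.2 was the same in both columns, with 66.0% and 84.1% of the locus. PB.6736 was at 149 and 0.793 TPM (−6.38), almost all of it PB.6736.1, which was listed at 0 in the control. PB.11844 was at 85.8 and 0.193 TPM (−6.19). At PB.3252 the α-amanitin total was 94.6 TPM and both isoforms were listed at 0 in the control. At these 5 loci no isoform reached 1 TPM in the control. A change of leader at a total under 1 TPM in 1 column was not counted as a switch.

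A total can hide isoforms that move apart. At 593 of the 3023 loci (19.6%, 18.2 to 21.1; background 19.0%) at least 1 isoform was 2-fold or more higher and another 2-fold or more lower in the control. With 2 isoforms per unit this held for 13.1% of loci (11.6 to 14.7) and 11.3% of RefSeq genes (8.02 to 15.6), intervals that overlap. The total stayed within 2-fold at 306 of these 593 (51.6%). Over all 3205 loci, every isoform was at least 2-fold lower at 357, every isoform was at least 2-fold higher at 106, and none passed 2-fold at 510. No background was computed for these counts. Of all single transcripts of the table, 29.3% were at least 2-fold lower and 21.8% at least 2-fold higher, so more lower than higher is not particular to these loci. The dominant isoform switched at 33.1% of 378 loci with a higher total (28.5 to 38.0), at 31.1% of 1351 with a lower total (28.7 to 33.6) and at 28.7% of 1294 within 2-fold (26.3 to 31.3). These intervals overlap. Switches with at least 80% in both columns were found at 2.63% of loci within 2-fold (1.89 to 3.65) and 6.88% with a higher total (4.74 to 9.89). Loci with a lower total lay between, at 4.44% (3.47 to 5.67). Such switches also varied with the level, at 7.42% of loci whose lower column was under 10 TPM. From 10 to under 100 TPM they were at 2.18%, and at 100 TPM or more at 1.38%. The change of the total was not separated from the level. A share moved of at least 80% was found at 6.88% of loci with a higher total (4.74 to 9.89), 5.26% with a lower total (4.19 to 6.58) and 2.86% within 2-fold (2.08 to 3.92).

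PB.2112, with 22 isoforms, had the widest gap between its isoforms. Its total was 2938 TPM in the control and 2168 TPM in the α-amanitin column. PB.2112.15 was at 691 TPM in the α-amanitin column and listed at 0 in the control. PB.2112.1 was at 819 TPM in the α-amanitin and 372 TPM in the control column, and PB.2112.14 at 428 and 150 TPM. In the other direction, PB.2112.18 was at 1273 TPM in the control and 38.0 TPM in the α-amanitin column, and PB.2112.11 at 378 and 0.542 TPM. In all, 9 of the 22 isoforms were at least 2-fold higher, 3 were at least 2-fold lower and 10 lay between.

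PB.9737 showed the same with 4 isoforms and a nearly equal total, 208 TPM in the control and 219 TPM in the α-amanitin column. PB.9737.1 fell from 175 TPM in the α-amanitin column to 0.869 TPM, PB.9737.2 was at 2.11e-05 and 162 TPM, and PB.9737.3 was at 38.7 and 32.0 TPM. At PB.6663 the total was higher in the control (1489 against 282 TPM) and PB.6663.2 led in both columns. Below it, PB.6663.8 (377 TPM) and PB.6663.4 (229 TPM) had a listed 0 in the α-amanitin column, and PB.6663.7, at 60.4 TPM there, was at 7.03e-09 TPM in the control. At PB.10000 the total was lower in the control (174 against 1541 TPM). PB.10000.1 led in both columns, and PB.10000.3 was nonetheless higher in the control, at 65.9 against 10.8 TPM. PB.4624, described above, was the fifth of these loci.

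**Figure D5:**
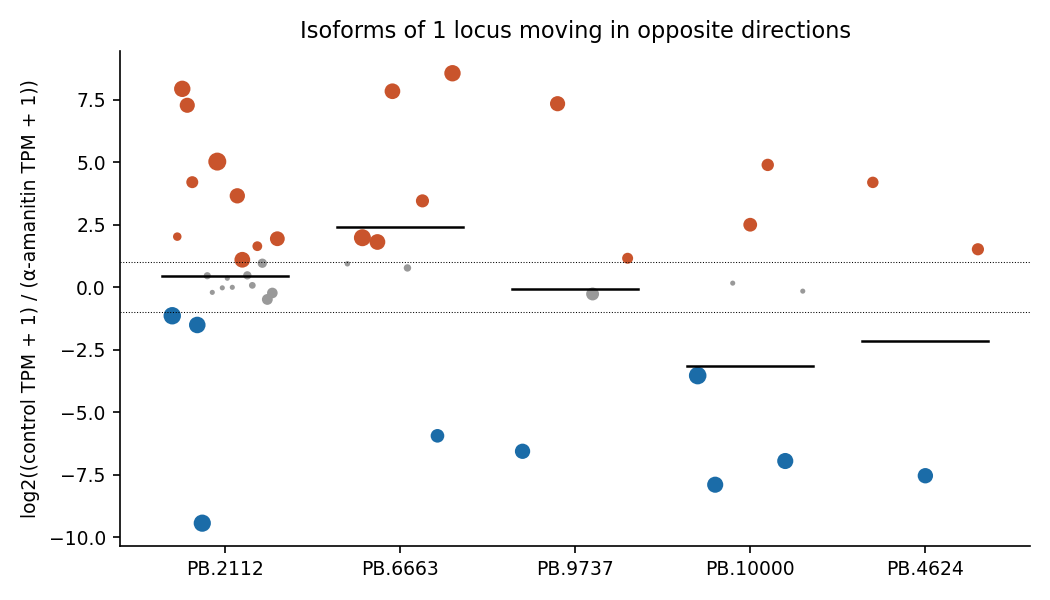
Each point is 1 isoform of the 5 loci with the widest gap between isoform ratios, placed by log2((control TPM + 1)/(α-amanitin TPM + 1)) on the y axis, with larger points for isoforms of higher TPM; orange is at least 2-fold higher and blue at least 2-fold lower in the control. Black bars mark the locus total, which at PB.9737 was −0.08 while isoforms lay at 7.35 and −6.56.

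Of the 3 loci with most isoforms, PB.8989 and PB.2112 were also among the 5 most abundant. PB.8989 lists 89 isoforms and had the highest mean level, 9263 TPM in the control and 26931 TPM in the α-amanitin column. PB.8989.28 led in both, with 30.4% and 56.3% of the locus. The 4 isoforms highest in the α-amanitin column held 82.7% of the locus there and 71.6% in the control, and the median isoform was at 1.40 and 1.59 TPM. Its effective number of isoforms was 2.89 in the α-amanitin column and 5.93 in the control, far below 89. In the untreated library table, whose locus numbers are separate and were not joined to these, the largest locus held 86 models, of which 84 had the class code for mostly repeat sequence. In the α-amanitin library the largest locus held 19 models, all of khdrbs1a. Whether either of them is PB.8989 was not tested.

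PB.11763 lists 14 isoforms at 12108 TPM in the control and 5548 TPM in the α-amanitin column. Its effective number was the highest of all loci of at least 10 TPM, 6.60 in the α-amanitin column, and its leader changed from PB.11763.12 (1448 TPM there) to PB.11763.5 (3540 TPM in the control). PB.11763.12 was itself at 3109 TPM in the control, with 25.7% of the locus there and 26.1% in the α-amanitin column. The lead of PB.11763.5 in the control was only 3.55 percentage points. PB.11763.2 was at 1184 TPM in the control and 0.478 TPM in the α-amanitin column. PB.11763.7 and PB.11763.8 had the same value in each column, the only such pair above 0 among the 8652 isoforms. PB.3516, with 9 isoforms, reached an effective number of 6.53 in the control, where PB.3516.1 led with only 21.4%. PB.2908, with 22, reached 6.46, and its leader was PB.2908.24 in the control (45.2 TPM) and PB.2908.6 in the α-amanitin column (190 TPM).

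Other abundant loci were carried by 1 isoform. PB.8456.1, at 5595 TPM in the control and 167 TPM in the α-amanitin column, led its locus by 99.9 and 99.5 percentage points. PB.7031.1 was at 3911 TPM in the control with the rest of the locus at or near 0, and at 1647 TPM in the α-amanitin column, where PB.7031.4 was at 485 TPM. Among loci of at least 100 TPM in both columns with 3 or more isoforms, the smallest share moved was found at PB.936, PB.1688 and PB.5207. PB.936.1 was at 374 TPM in the control and 226 TPM in the α-amanitin column, PB.1688.1 at 487 and 958 TPM, and PB.5207.1 at 206 and 618 TPM. Of their 7 other isoforms, 6 were listed at 0 in both columns, so in the table each of these loci was in effect 1 transcript.

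The per-library tables, which do carry gene names, show what kinds of transcript lie together at a locus. There, 2319 of 9504 loci (24.4%, 23.5 to 25.3) in the α-amanitin library and 2101 of 9444 (22.2%, 21.4 to 23.1) in the untreated library had 2 or more models. Their locus numbers are separate from those of the expression table and were not matched to them. Exactly 1 reference gene was named at 85.0% and 85.6% of these loci, none at 13.6% and 13.3%, and more than 1 at 31 and 23 loci. Models at these loci were most often class j, which have at least 1 reference splice junction within a new structure, at 40.6% (39.4 to 41.9) and 38.3% (37.1 to 39.6). Among loci with 1 model the shares were 13.0% and 12.3%. Models with all introns of a reference transcript (class =) were 24.4% and 23.8% at loci with 2 or more models and 37.5% and 36.3% at loci with 1. Intergenic models (class u) were 13.8% and 14.0% against 26.2% and 25.8%. Models contained in a reference transcript (class c) were 17.4% and 18.2% against 12.0% and 13.4%. These are shares of models, and counting by locus turns the class = comparison around. At least 1 class = model was present at 59.6% and 58.3% of the loci with 2 or more models. A locus with more models has more chances to hold such a model, and this was not corrected for. There were 1443 class = models at 1382 such loci in the α-amanitin library and 1286 at 1224 in the untreated library. Further models at these loci therefore mostly had another code, and the class j contrast was not corrected for this either.

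A class = model lay beside at least 1 class j model at 953 of the α-amanitin loci (41.1%) and 803 of the untreated loci (38.2%). The models of a locus often differed widely in length. Whether the shorter ones are partial copies of longer transcripts was not tested. The median distance between the shortest and longest was 691 bases for α-amanitin, with quartiles of 206.5 and 1393.5, and 712 bases for the untreated pool, with quartiles of 238 and 1319, and at 39.9% and 40.2% of the loci the longest was at least 2 times the shortest. At least 2 models at 1 locus were found for 1985 of 6656 genes (29.8%) in the α-amanitin library and 1793 of 6537 (27.4%) in the untreated library. The 973 genes with this in both libraries are 49.0% of the first set and 54.3% of the second. These sets include genes that were not found in the other library. Of the 5533 genes found in each library, 889 had this in the α-amanitin library alone and 747 in the untreated library alone. No overlap expected by chance was computed.

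The 10 genes with most models at 1 locus had varied functions. khdrbs1a, an RNA-binding protein that acts in splicing in mammals, had 18 class j models among its 19 in the α-amanitin library and 9 among its 10 in the untreated library. u2af2b, a subunit of the factor that marks the 3′ splice site, had 8 models in each library, 6 of them class j in each. atf7ip, which in mammals works with a histone methyltransferase, had 9 and 8 models from 343 to 3489 bases long. brd3a, of the family of bromodomain proteins that bind acetylated histones, had 6 and 8, and nasp, a histone chaperone, 7 and 10. cdc14b, a cell cycle phosphatase, had 6 and 8 models, slc37a2, a sugar-phosphate transporter, 8 and 7, and ppt2a.3, a thioesterase, 7 and 10. The remaining names of the 10 were lemd1 (11 and 10 models, 10 of them class j in each) and si:dkey-33c12.4 (13 and 6). The widest length range was that of dnmt1, the enzyme that maintains DNA methylation, with 9 models of 322 to 4913 bases in the α-amanitin library and 4 of 1269 to 3102 bases in the untreated library. Of these dnmt1 models, 7 of the 9 and all 4 were class c, contained in a reference transcript.

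Splicing regulators, whose own transcripts are known in many species to be spliced in several ways, were taken as a list of 43 genes. In the α-amanitin library 18 of the 36 found had 2 or more models at 1 locus (50.0%, 34.5 to 65.5), and in the untreated library 20 of 35 (57.1%, 40.9 to 72.0), beside 29.8% and 27.4% of all named genes. hnrnpa1b had 7 and 5 models, srsf7a 6 and 4, hnrnpub 6 and 5, and u2af2a 4 and 3. None of the 6 hnrnpub models of the α-amanitin library was class j. The counts take models of any class, and whether they reflect splicing was not tested. Genes were not matched for level. Of 20 maternal genes, 19 were found in each library, and 14 (73.7%, 51.2 to 88.2) and 11 (57.9%, 36.3 to 76.9) had 2 or more models. buc, which organizes the germ plasm, had 6 and 4, dazl, a germ cell RNA-binding protein, 6 and 3, and ccnb1, the mitotic cyclin B1, 5 and 5. Of 20 zygotic genes only 1 was found in each library, ndr1 in the α-amanitin and krt4 in the untreated library, each with 1 model. Read support per model is not known, as the abundance columns of these tables are 0 throughout.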

How the data were processed

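Per the series description, the authors assembled long reads into transcripts with IsoSeq, mapped them to GRCz10 with GMAP and annotated them with Cuffcompare. Kallisto and bcl2fastq 1.8.3 are named in the submitters' processing notes, with no role or order. The authors' deposited expression table holds log2(TPM + 1) values for 32575 transcripts; the unit was read from the values, since 2 to the power of each, minus 1, sums to 1000000 per column. Reads, index and filters behind it are not given in the sources used here. TPM keeps no depth, so the depth is unknown. The deposited Cuffcompare tables give model lengths in bases (another unit than abundance) and class codes.

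PacBio rows were grouped by locus number and shares computed from TPM. Isoforms at 0 stayed in. The floor was 1 TPM per locus total in both columns, the pseudocount for ratios 1 TPM, and "called" means 2-fold. Shares of loci have Wilson 95% intervals, and medians have binomial order-statistic 95% intervals. With 1 library per group no test was run. RefSeq transcripts were grouped by symbol (15455 of 15936 named, from a RefSeq gene table of assembly GRCz12tu and the Cuffcompare tables); library genes carry the symbols of that table. Named loci were those ranking highest by isoform number, level, share moved, rise, fall, stability, effective number or gap between isoforms. The members, lists and rules were chosen with earlier results of these data known. The number of value columns not used was 0. The per-locus computation was checked on simulated data. Python 3.11.15, numpy 2.4.6, pandas 2.3.3, scipy 1.17.1 and matplotlib 3.10.9 were used. Alternatives to the floor, thresholds, pseudocount and isoform filter are given in the closing section.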

Additional observations from a re-analysis of the deposited data

How the results depend on the processing

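Of 66 values under alternatives over 15 results, 35 stayed within the 95% interval of the reported value (counts: within 1.5 times) and 31 did not. Only the median log2 ratio of locus totals has a sign that could change, and it stayed negative. Causes were not tested, except that a stricter floor, threshold or subset counts fewer loci by construction. With at least 10 TPM in both columns there were 548 switches (28.0%) and 391 majority switches (20.0%), the dominant share was 79.2% (control) and 81.6% (α-amanitin), the effective number 1.50 and 1.44, and the share moved 17.3%. Without isoforms under 1 TPM in both columns, 36.2% of 2505 loci switched, and these medians were 75.3% and 77.3%, 1.60 and 1.55, and 23.8%. At loci with 2 isoforms there were 469 switches (24.9%), dominant shares of 88.0% and 91.6%, and a share moved of 12.8%. A lead of 10 points left 21.3% of loci with a switch. Majority thresholds of 60% and 80% left 454 (15.0%) and 120 (3.97%) loci.

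At 4-fold, 158 locus totals were higher and 763 lower in the control, and 197 loci had isoforms moving apart. With a pseudocount of 0.1 TPM and 2-fold, isoforms moved apart at 812 of 3023 loci, against 593 at 1 TPM. That rise counts as unchanged only because it lies within 1.5 times. Centring raised the higher totals to 657 and moved the median ratio to −0.33. Without class codes e, p, r and s, 23.2% of the untreated library's loci had 2 or more models. Loci with no gap in their isoform numbers, a choice made after the data were seen, gave 826 switches (30.1%). Adding 1 TPM to each isoform cannot change a leader, so the 917 switches under it say nothing about stability. No paired analysis was possible because each group has 1 library and the labels give no replicate numbers. No library could be left out for the same reason. The unknown depth limits most the isoforms at or near 0 TPM, which decide the largest switches.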

Other observations

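RefSeq genes with several transcripts in the same table gave named examples of the same kind of change. septin15, of the septin family of cytoskeletal GTPases, had an almost equal total in both columns, 57.2 TPM in the control and 55.0 TPM in the α-amanitin column. NM_001077743 held it in the control (57.2 against 4.02e-06 TPM), and NM_001126450, listed at 0 in the control, held it in the α-amanitin column (55.0 TPM). pitpnb, which encodes a phosphatidylinositol transfer protein, had NM_001328435 at 13.3 TPM in the control and 0.0261 TPM in the α-amanitin column, and NM_200920 at 0.0246 and 10.6 TPM. cirbpb, an RNA-binding protein related to the mammalian cold-inducible one, has 6 transcripts in the table and a total of 961 TPM in the control and 41.2 TPM in the α-amanitin column. Its leaders in both columns were non-coding transcripts. NR_132113 led in the control with 84.7% of the gene (814 TPM). NR_132112 led in the α-amanitin column with 75.1% and held 1.42% in the control. The coding transcripts NM_001040321 and NM_001309458 held 14.2% and 5.84% in the α-amanitin column. In the control they were at 4.42e-09 TPM and a listed 0. These 3 were the switches with the largest share moved among RefSeq genes of at least 10 TPM in both columns, and the PacBio isoforms of the same genes are not part of their values.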
